A study of Mus musculus with 56 samples.

Results

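Astrocytes sorted from the brains of old and young wild-type mice were compared, 7 libraries from old mice against 7 from young mice. These 14 libraries were chosen by their labels alone (cell type astrocyte, genotype TREM2 +/+, age young or old) out of 56 libraries in the series. The mice were female and carried the wild-type allele of Trem2, which encodes a lipid-sensing receptor of microglia. Young mice were 2 months old. Old mice have a labelled age of 16 months, and the treatment protocol gives 16 to 18 months. Each mouse was perfused with saline, its brain was dissociated with enzymes, and live cells carrying ACSA-2, an epitope on the ATP1B2 protein of astrocytes, were collected by flow cytometry. RNA of each sort was read as 3′ tags with molecular identifiers, 1 library per mouse. A further 14 astrocyte libraries came from mice homozygous for a Trem2 knockout at the same ages (7 and 7), and 14 microglia libraries (Cd11b+ cells) came from the same wild-type mice. No mouse was sampled at both ages, so age differs between animals. The sort took astrocytes of the whole brain, so regional subtypes were pooled.

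Astrocytes take up glutamate and potassium, supply neurons with lactate and cholesterol, line blood vessels with their endfeet, and release factors that shape synapses. With age or injury they can become reactive, a state usually read from Gfap, Vim, Serpina3n and complement genes. They also answer interferons: receptor signalling activates STAT and IRF9 proteins, which bind response elements in the promoters of interferon-stimulated genes.

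The libraries held between 241310 and 622580 counts (median 454815) in old mice and between 293960 and 849919 (median 571786) in young mice. The difference of the mean log2 totals was -0.44 (exact two-sided permutation p = 0.118 over 3432 splits). RNA integrity was lower in old samples, 8.51 ± 0.40 against 9.31 ± 0.71 (SD, n = 7 each; exact two-sided permutation p = 0.028, 0.112 after Benjamini-Hochberg adjustment over the 4 library measures tested). The old library of animal 7 stood apart from the others on the first principal component and was also the shallowest. All 24 astrocyte homeostasis genes listed (Slc1a2, Slc1a3, Glul, Aqp4, Aldh1l1 and others) were detected and tested. Their summed level was between 43350 and 53220 CPM (counts scaled to a library of 1000000) in young and between 43400 and 54770 in old libraries. Trem2 itself was counted 0 to 8 times per wild-type astrocyte library. In wild-type microglia of the same mice it was counted 120 to 388 times, and 22 to 107 times in knockout microglia.

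Few genes differed between old and young wild-type astrocytes. Of 7524 genes tested, 2 passed an adjusted p of 0.05 (edgeR quasi-likelihood test, Benjamini-Hochberg over all genes tested), 0.0266% of the genes, and both were lower in old mice. At an unadjusted p under 0.05 there were 538 genes (7.15%), 237 higher (3.15%) and 301 lower (4.0%). No gene passed as higher.

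Adamts1 (ENSMUSG00000022893.14, chr16:85793827-85803113 in GRCm38, minus strand) encodes a secreted metalloprotease that cleaves proteoglycans such as versican. Its level was lowest 56.5, median 73.7 and highest 99.4 CPM in young libraries and lowest 14.4, median 34.1 and highest 46.4 CPM in old ones. Every old library was below every young one. The log2 fold change was -1.27 ± 0.25 (SE, 95% interval -1.78 to -0.77, adjusted p = 0.0404 by edgeR). The libraries held between 20 and 81 counts of it in young and between 3 and 21 in old mice.

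Tfrc (ENSMUSG00000022797.15) encodes the transferrin receptor, which brings iron into the cell. It ran from 80.7 through a median of 105 to 137 CPM in young libraries and from 42.5 through 57.6 to 76.6 CPM in old ones, again with no overlap. Its log2 fold change was -0.89 ± 0.18 (SE, 95% interval -1.25 to -0.53, adjusted p = 0.0404 by edgeR). Other iron genes did not pass. Slc11a2, an iron transporter of endosomes, differed by -0.50 (adjusted p = 0.732), the ferritin gene Fth1 by -0.27 (adjusted p = 0.902), and Ireb2 and Aco1, whose proteins bind iron-responsive elements in RNA, by -0.04 (adjusted p = 0.987) and 0.02 (adjusted p = 0.997), all by edgeR. These iron genes were chosen after values had been seen.

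Both calls lay close to the threshold. With 1 of the 14 libraries left out, Adamts1 kept its call without old animal 11, young animal 21 or old animal 27. Tfrc kept its own without young animal 21, old animal 27 or old animal 7. Their adjusted p values over the 14 fits ran from 0.0374 to 0.176 and from 0.0374 to 0.172. The log2 fold changes stayed between -1.40 and -1.19 for Adamts1 and between -0.95 and -0.81 for Tfrc. With RNA integrity as a covariate no gene passed (506 at an unadjusted p under 0.05). Adamts1 then differed by -1.18 (edgeR adjusted p = 0.286) and Tfrc by -0.98 (edgeR adjusted p = 0.166), folds close to those without the covariate.

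**Figure D1:**
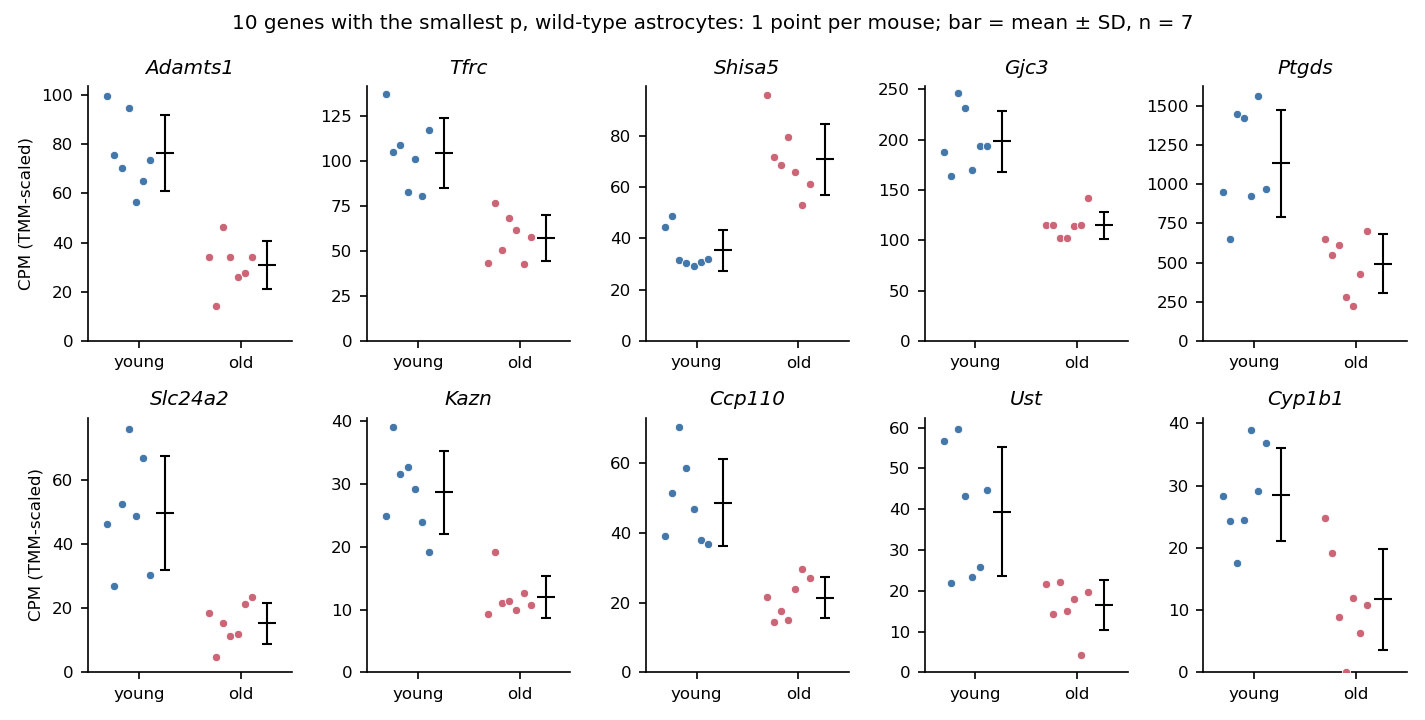
Level of the 10 genes with the smallest p in each wild-type astrocyte library, in TMM-scaled CPM (vertical axes, from 0), young in blue and old in red, with mean ± SD beside the points (n = 7 mice per age). Adamts1 and Tfrc, the 2 genes past the threshold, show every old library below every young one, and Shisa5 shows the opposite.

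The next 8 genes by p are given as values, since none passed the threshold. Of 9 other settings of the fit, Shisa5, Gjc3 and Ptgds each passed in 5 and Slc24a2 in 4. Shisa5, which encodes an endoplasmic reticulum protein induced by p53, was between 29.2 and 48.9 CPM (median 31.6) in young and between 53.1 and 96.0 CPM (median 68.5) in old libraries. Its log2 fold change was 0.99 ± 0.21 (SE), the only positive one among the 10 genes (edgeR adjusted p = 0.0651). Gjc3, which encodes the connexin Cx29 of oligodendrocytes and Schwann cells, was between 164 and 246 CPM (median 194) in young and between 102 and 142 CPM (median 115) in old libraries. Its difference was -0.77 ± 0.16 (SE, edgeR adjusted p = 0.0651). The old and young libraries of Shisa5 and Gjc3 did not overlap.

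Ptgds, the prostaglandin D synthase of oligodendrocytes and the leptomeninges, had medians of 972 CPM in young and 551 CPM in old libraries (log2 fold change -1.20, edgeR adjusted p = 0.124). Slc24a2, a sodium, calcium and potassium exchanger, had medians of 48.7 and 15.5 CPM (-1.62, edgeR adjusted p = 0.124). Kazn, which encodes a desmosome-associated protein, had medians of 29.2 and 11 CPM (-1.27, edgeR adjusted p = 0.155). Slc24a2 and Kazn separated the ages without overlap, while Ptgds did not. Old libraries held only 1 to 13 counts of Slc24a2 and 3 to 6 of Kazn. Ccp110 encodes a centriole cap protein. It ran from 36.8 to 70.2 CPM in young and from 14.4 to 29.7 CPM in old libraries (-1.09, edgeR adjusted p = 0.163). Ust, a uronyl sulfotransferase that modifies chondroitin and dermatan sulfate, had medians of 43.2 and 18.0 CPM (-1.23, edgeR adjusted p = 0.163). Cyp1b1, a cytochrome P450 of steroid and retinoid metabolism, had medians of 28.4 and 10.8 CPM (-1.35, edgeR adjusted p = 0.163). Old libraries held 3 to 15 counts of Ccp110 and 2 to 11 of Ust. The lowest old library of Cyp1b1 held 0 counts, and its ages overlapped.

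Over all genes tested, the ages did not overlap in 6 genes that were higher in every old library (0.0797% of the genes) and in 9 that were lower (0.12%). The higher ones were Shisa5, Pcdh11x, Ppp1r3d, Ifi27, Pou3f4 and Atg4b. The lower ones were Adamts1, Tfrc, Gjc3, Slc24a2, Kazn, Ccp110, Ppip5k2, Fam73a and Dennd2a. Ppp1r3d encodes a subunit that targets a phosphatase to glycogen, Pou3f4 a transcription factor, Atg4b a protease of autophagy, and Pcdh11x a protocadherin. These genes were singled out after their values had been seen.

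The genes usually read for astrocyte reactivity did not pass the test. Gfap, the intermediate filament of reactive astrocytes, was between 22.4 and 73.7 CPM (median 42.1) in young and between 18.9 and 101 CPM (median 37.9) in old libraries. Its log2 fold change was 0.21, with a 95% interval of -0.44 to 0.86 (edgeR adjusted p = 0.952). Old and young libraries overlapped, and any difference inside this interval is compatible with these data. Vim, another filament protein, differed by -0.25 (95% interval -0.61 to 0.11, edgeR adjusted p = 0.845), and Serpina3n, a secreted protease inhibitor, by -0.13 (95% interval -0.69 to 0.43, edgeR adjusted p = 0.97).

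C4b, C3 and Lcn2, a pair of complement genes and the lipocalin of strongly reactive astrocytes, were too low to enter the test. C4b was between 0 and 7.33 CPM (median 4.67) in young and between 5.4 and 18 CPM (median 11) in old libraries, and the ages overlapped. Fitted without the filter on low counts, its log2 fold change was 1.35 ± 0.55 (SE, edgeR adjusted p = 0.539 over 23907 genes). C3 had a median of 0 CPM in young and 3.99 CPM in old libraries (1.42 ± 0.85 without the filter, edgeR adjusted p = 0.753), and Lcn2 had a median of 0 CPM at both ages. Among 12 genes of the A1 reactive list, 3 were tested and 2 of them were higher at an unadjusted p under 0.05 (background 3.15%), though both passed the filter only through old libraries. Fbln5, which encodes an elastic fibre protein, had medians of 16.4 CPM in young and 40.4 CPM in old libraries (1.23, edgeR adjusted p = 0.357; 1.31 in knockout astrocytes), and Amigo2, an adhesion protein, 17.5 and 27.9 CPM (0.74, edgeR adjusted p = 0.559). Without the filter Fbln5 passed (1.20, edgeR adjusted p = 0.0169). In that fit p-values of abundant genes fell as well, at nearly the same fold. Calls made only there, here and below, do not replace the filtered result. Of the 13 pan-reactive genes listed, 5 were tested, and none differed at an unadjusted p under 0.05. Their median log2 fold change was -0.01, beside 0.0034 over all genes tested.

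Genes of astrocyte homeostasis and of lipid supply did not pass the test. Slc1a2, the main glutamate transporter, was between 5920 and 7560 CPM (median 6920) in young and between 6670 and 8350 CPM (median 6840) in old libraries. Its log2 fold change was 0.11 (95% interval -0.11 to 0.33, edgeR adjusted p = 0.917). No larger difference was measured for Glul, glutamine synthetase (0.09, 95% interval -0.19 to 0.36), Slc1a3, another glutamate transporter (0.09, -0.28 to 0.46), and Aqp4, the water channel of the endfeet (0.01, -0.27 to 0.29). None of these genes passed the test. Over the 24 homeostasis genes the median was 0.12, and 2 were higher at an unadjusted p under 0.05 (background 3.15%), namely Hepacam, an adhesion protein (0.36), and Ndrg2 (0.33).

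Apoe, the main carrier of brain lipids, was between 2780 and 3950 CPM (median 3380) in young and between 3180 and 5100 CPM (median 3350) in old libraries (0.17, 95% interval -0.08 to 0.43, edgeR adjusted p = 0.854). Clu, another apolipoprotein, differed by 0.15 (95% interval -0.12 to 0.42), and Sparc, a secreted matrix protein that limits synapse formation, by 0.23 (-0.10 to 0.57). Apod, an apolipoprotein of the lipocalin family, was between 754 and 1120 CPM (median 909) in young and between 182 and 935 CPM (median 654) in old libraries, of which 6 lay below every young one. Its difference was -0.72 (edgeR adjusted p = 0.328) and 0.27 in knockout astrocytes (interaction -0.999, edgeR adjusted p = 0.901), and it passed without the filter (-0.74, edgeR adjusted p = 0.00104). It was the 1 gene of 14 tested for cholesterol transport at an unadjusted p under 0.05. Of 25 cholesterol synthesis genes, 20 were tested, none passed an unadjusted p of 0.05 in either direction, and the median was -0.03. In knockout astrocytes 4 of the 20 were lower at that p (background 3.26%), and the list's median was -0.17.

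Other lists of pathways held few genes past an unadjusted p of 0.05, and none past the adjusted one (background 3.15% higher and 4.0% lower at the unadjusted p). In glycolysis and lactate supply, 5 of 19 tested were higher and 0 lower (median 0.23). They were Gys1, glycogen synthase (0.65), Tpi1 (0.55), Gpi1 (0.50), Ppp1r3c, a glycogen-targeting phosphatase subunit (0.44), and Aldoa (0.42). Of 16 circadian clock genes, 4 were higher, namely Hlf (0.53), Nr1d1 (0.52), Cry2 (0.45) and Tef (0.43), and the list's median was 0.14. The labels used here give no hour of collection, so a difference in time of day was not tested. In fatty acid oxidation, 3 of 19 were higher (Hadha 0.43, Acadm 0.38, Acsbg1 0.29; median 0.10), and Fabp7, a fatty acid binding protein, differed by -0.63 and passed without the filter (-0.64, edgeR adjusted p = 0.012). Among 18 extracellular matrix genes tested, Bcan, the proteoglycan brevican (0.33), and Timp3, a metalloprotease inhibitor (0.23), were higher. Tnc, which encodes tenascin C, was lower (-1.01; -1.58 in knockout astrocytes). Of 36 cytosolic ribosomal protein genes tested, 1 was lower (Rpl39, -0.53) and the median was -0.11. Of 73 nuclear genes of oxidative phosphorylation, 2 were higher and 2 lower (median -0.03).

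**Figure D2:**
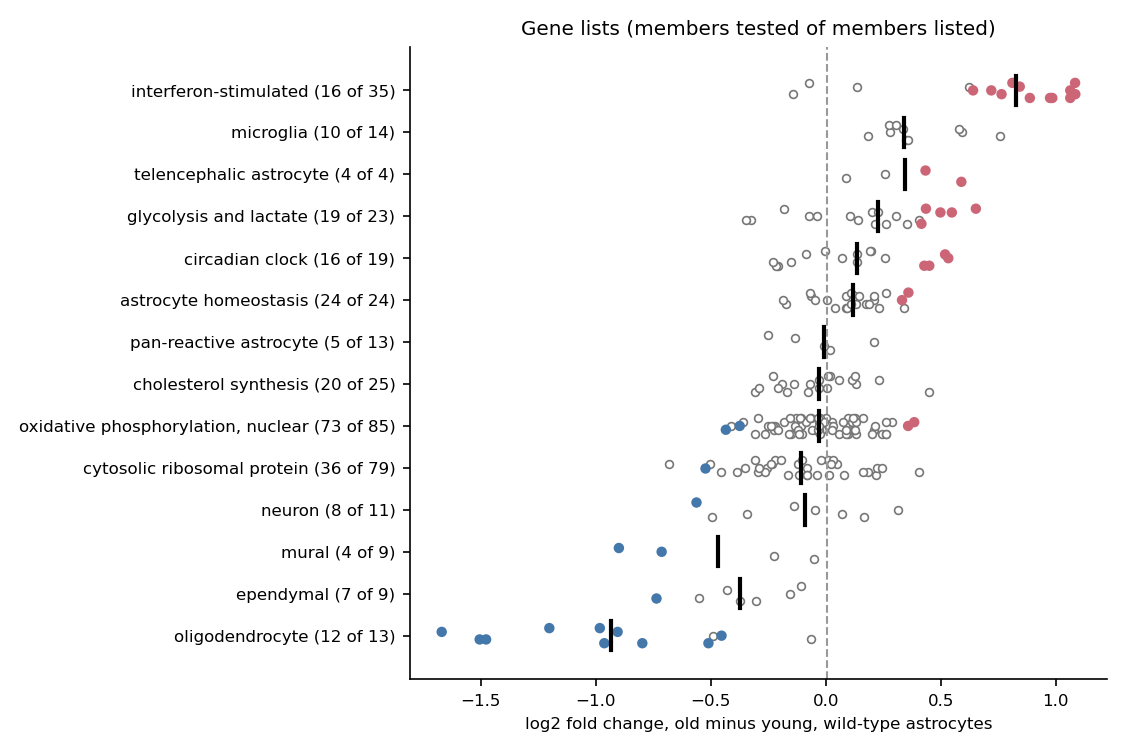
Log2 fold change, old minus young, of each tested member of 14 gene lists in wild-type astrocytes (horizontal axis), with members at an unadjusted p under 0.05 filled (red higher, blue lower), the list median as a black bar and the median of all genes as a dashed line. Interferon-stimulated genes lie highest (median 0.83) and oligodendrocyte genes lowest (median -0.93), and 11 of the 16 interferon-stimulated genes shown did not pass the filter in young libraries alone.

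Most interferon-stimulated genes had a higher level in old astrocytes, though none passed the adjusted threshold with the filter on low counts. Their proteins block viral entry and translation, tag proteins for removal, or carry the interferon signal itself. A match to the interferon-stimulated response element was searched in promoters from RefSeq (GRCm38.p6), 250 bases before to 50 after each start, as GAAA, any 2 bases and GAAA again, on both strands and with overlapping matches counted. Of the 16 tested genes of this list, 13 were in the promoter table, and 11 of those held a match (84.6%), beside 3.43% of the 5626 tested genes found in the table and 3.44% of all 32851 windows. The list was named for this response, so the share describes the list and not the age difference. The windows of 4 members are shown as examples among the members with a match before the start. Capitals mark the letters that match in either orientation, and each line ends before the start site.
Isg15: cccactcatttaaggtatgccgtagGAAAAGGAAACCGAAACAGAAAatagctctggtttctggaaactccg
Ifit3: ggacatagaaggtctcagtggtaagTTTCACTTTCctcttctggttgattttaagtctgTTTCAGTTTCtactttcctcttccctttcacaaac
Bst2: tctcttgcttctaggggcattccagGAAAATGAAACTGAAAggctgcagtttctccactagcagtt
Rsad2: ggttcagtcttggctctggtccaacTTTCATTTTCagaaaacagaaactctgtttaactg
In GRCm38.p6 these are chr4:156200850-156200921 (minus strand), chr19:34583348-34583441 (plus), chr8:71537562-71537627 (minus) and chr12:26456538-26456597 (minus), in the order shown. Isg15 holds 3 overlapping matches, Ifit3 and Bst2 2 each, and Rsad2 1. The match nearest to the start begins between 66 bases (Isg15) and 124 bases (Bst2) before it.

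Ifi27, a mitochondrial interferon-induced protein, was between 68.9 and 97.7 CPM (median 82.4) in young and between 98.4 and 203 CPM (median 110) in old libraries, with no overlap. Its log2 fold change was 0.64 ± 0.20 (SE, edgeR adjusted p = 0.357). Lgals3bp, a secreted glycoprotein, was between 19.5 and 63.5 CPM (median 33.7) in young and between 53.9 and 118 CPM (median 59.5) in old libraries (0.89 ± 0.23, SE, edgeR adjusted p = 0.187). Among young libraries, that of animal 5 alone lay within the range of the old ones. Isg15, a ubiquitin-like modifier, overlapped more, with 7.1 to 38.6 CPM (median 19.2) in young and 9.58 to 77.4 CPM (median 29.7) in old libraries (0.81, edgeR adjusted p = 0.565). Ifit3, which binds foreign RNA with its partners, had medians of 14.7 and 30.0 CPM (0.98), Bst2, a tether of budding virus, 13.6 and 26.5 CPM (0.99), and Rsad2, an antiviral radical enzyme, 16.0 and 28.7 CPM (0.76). These 3 genes lay at an unadjusted p under 0.05 and an adjusted p of 0.357 or more. None of the 3 passed the filter in the young libraries alone, so their unadjusted p is no support by itself.

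Of 35 interferon-stimulated genes listed, 16 passed the filter on low counts and 12 of them were higher at an unadjusted p under 0.05. That count is no support by itself: only 5 of the 16 passed in the 14 young libraries alone (Ifi27, Ifitm3, Isg15, Lgals3bp and Eif2ak2), 10 passed through old libraries and 1 only with both. Among the 5, 4 were higher at that p, and the median log2 fold change was 0.72. Of all 6472 genes that passed in young libraries alone, 190 were higher and 283 lower at that p, with a median of -0.005. Without the filter, 33 members had reads at both ages, of which 27 had a positive and 6 a negative difference. There 15 were higher and 0 lower at an unadjusted p under 0.05 (background 2.15% higher and 3.68% lower of 23907 genes), and the median was 0.72. In that fit Lgals3bp was the 1 member past the adjusted threshold (0.86, edgeR adjusted p = 0.0482; background 0.0251% higher and 0.192% lower). Over the 14 leave-one-out fits with the filter, the count of members higher at an unadjusted p under 0.05 ran from 9 to 12. This count has the same limit, as most members passed through old libraries, so its range is no support either. With only the 14 wild-type astrocyte libraries in the fit, 6 members were tested and 4 were higher at an unadjusted p under 0.05. Whether those 6 passed through old libraries was not examined, so this count carries the same limit.

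Microglia also express interferon-stimulated genes, and their markers are given here. All 10 tested microglia markers (Cx3cr1, Csf1r, C1qa and others, of 14 listed) had a positive difference, 0 of them at an unadjusted p under 0.05, with a median of 0.34. Without the filter 13 of 13 were positive, 3 of them at an unadjusted p under 0.05 (background 2.15%), with a median of 0.32. Their summed level was between 485 and 1955 CPM (median 691) in young and between 442 and 2306 CPM (median 1003) in old libraries, and none of the 13 in the table was at 0 in every library of an age. With that level as a covariate, 4 of the 5 interferon-stimulated genes that passed in young libraries alone were higher at an unadjusted p under 0.05, with a median of 0.69, while no gene of the whole table passed the adjusted threshold (554 at an unadjusted p under 0.05). Adamts1 differed by -1.25 and Tfrc by -0.85 there, both with an edgeR adjusted p of 0.0881. Markers of T and NK cells, B cells, monocytes, neutrophils and border macrophages were below the filter in all their members.

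Genes of mature oligodendrocytes had lower levels in the sorts from old mice. None passed the adjusted threshold with the filter on low counts, and 8 of 13 passed as lower without it (background 0.192%). In that unfiltered fit p-values of abundant genes fell at nearly the same fold. Cldn11 went to an edgeR adjusted p of 1.52e-12 at -1.52, so these 8 calls do not replace the filtered result. In bulk samples, fewer cells of a type and less RNA per cell cannot be told apart. Cldn11, a tight junction protein of myelin, was between 70.8 and 327 CPM (median 180) in young and between 9.58 and 142 CPM (median 55.9) in old libraries (-1.51, edgeR adjusted p = 0.246). Mag, a myelin adhesion protein, was between 105 and 340 CPM (median 170) in young and between 28.7 and 166 CPM (median 78.6) in old libraries (-1.20, edgeR adjusted p = 0.243). For both genes the old median lay below every young library, while the old library of animal 27, and for Cldn11 also that of animal 15, lay within the young range. Ugt8a, which makes the myelin lipid galactosylceramide, had medians of 82.4 and 18.6 CPM (-1.48, edgeR adjusted p = 0.331). Mbp, myelin basic protein, had medians of 713 and 764 CPM (-0.06, edgeR adjusted p = 0.987).

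Of 13 oligodendrocyte markers, 12 were tested, and all 12 had a negative difference. At an unadjusted p under 0.05, 10 were lower (background 4.0%), and the median was -0.93. All 12 passed the filter in young libraries alone, where their levels were higher, so passing there is no check on these counts. Without the filter all 13 were negative, 11 of them at an unadjusted p under 0.05 by edgeR (background 3.68% lower). Their summed level was between 2973 and 14900 CPM (median 9269) in young and between 1523 and 11650 CPM (median 4101) in old libraries, so the ages overlapped in the sum. The highest old library was animal 27 and the lowest young one animal 5. Oligodendrocyte precursor markers gave summed medians of 311 CPM in young and 320 CPM in old libraries. Without the filter 6 of 7 with reads at both ages were negative (median -0.44), 0 of them at an unadjusted p under 0.05 by edgeR.

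Several genes with a small p in the comparison of ages are known from oligodendrocytes, among them Gjc3 and Ptgds. With the summed oligodendrocyte level as a covariate, Gjc3 differed by -0.63 in place of -0.77, Ptgds by -1.03 in place of -1.20, and Slc24a2 by -1.18 in place of -1.62. Adamts1 and Tfrc differed by -1.25 and -0.96 and passed (adjusted p = 0.0394 and 0.0285 by edgeR), and 5 genes passed in all, every one of them lower in old mice. Of the 12 oligodendrocyte markers, which make up the covariate, 4 were lower at an unadjusted p under 0.05 in that fit. Whether oligodendrocyte material in the sort had a part in the other differences was not tested beyond these values.

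**Figure D3:**
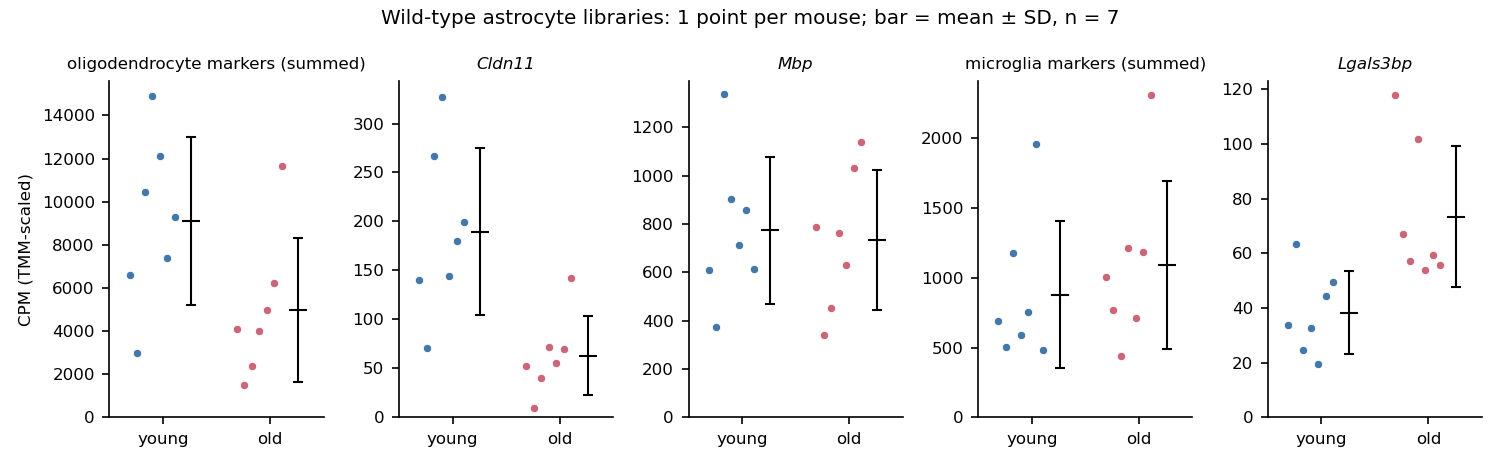
Summed level of oligodendrocyte and of microglia markers, and levels of Cldn11, Mbp and Lgals3bp, in each wild-type astrocyte library (vertical axes in TMM-scaled CPM, from 0; young blue, old red; bars give mean ± SD, n = 7 mice per age). Cldn11 had medians of 180 CPM in young and 55.9 CPM in old libraries, Mbp 713 and 764 CPM, and every group of points overlapped with its counterpart.

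Markers of other cells moved as follows, beside a background of 3.15% higher and 4.0% lower at an unadjusted p under 0.05. All 7 tested ependymal markers had a negative difference (median -0.37, 1 lower at an unadjusted p under 0.05), and their summed level was between 244 and 548 CPM in young and between 130 and 415 CPM in old libraries. Without the filter all 9 ependymal markers were negative, 4 of them at that p (background 3.68% lower). Of 4 tested mural markers, Vtn (-0.90) and Rgs5 (-0.71) were lower at that p. All 4 were negative in wild-type and positive in knockout astrocytes (medians -0.47 and 0.06). Without the filter all 9 mural markers were negative in wild-type astrocytes, 2 of them at that p. Of the choroid plexus markers 2 were tested, and Enpp2 was lower (-0.68). Neuron markers had a median of -0.09 over 8 tested. All 4 markers of telencephalic astrocytes had a positive difference (median 0.35), with Emx2 (0.59) and Mfge8 (0.43) at an unadjusted p under 0.05, while 5 tested markers of non-telencephalic astrocytes had a median of 0.14. In knockout astrocytes 3 of the 4 telencephalic markers were negative (median -0.11). Red cell markers were below the filter. Their summed level was 0, 0, 0, 24.4, 117, 126 and 130.5 CPM in young libraries and at most 24.8 CPM in old ones, with young animals 9, 13 and 21 highest. Without the filter, all 3 with reads at both ages were lower at an unadjusted p under 0.05, and Hbb-bs passed (155 counts over the young and 14 over the old libraries, edgeR adjusted p = 9.73e-09). The part of these cells and regions in the differences above was not tested.

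The same comparison in Trem2 knockout astrocytes shares no library with the wild-type one. Of 7524 genes, 3 passed (0.0399%), 2 higher (0.0266%) and 1 lower (0.0133%), namely Ifit1 (log2 fold change 2.14) and AC149090.1 (1.36), higher in old mice, and Grm5, a metabotropic glutamate receptor of young astrocytes, lower (-1.92). Their differences in wild-type astrocytes were 1.08, 0.93 and -0.76, none past the adjusted threshold. In turn Adamts1 differed by -0.78 in knockout astrocytes (adjusted p = 0.337 by edgeR) and Tfrc by -0.73 (adjusted p = 0.0952 by edgeR).

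Of the 538 genes at an unadjusted p under 0.05 in wild-type astrocytes, 378 (70.3%) had the same direction in knockout astrocytes, beside 57.4% of all genes tested. Of them 87 were at an unadjusted p under 0.05 in knockout astrocytes in the same direction and 8 in the opposite one. Over all 7524 genes tested, these counts were 404 and 149. Whatever their direction in wild type, 7.35% of all genes were at that p in knockout astrocytes, 4.09% higher and 3.26% lower. Of the 5 interferon-stimulated genes that passed in young libraries alone, 4 were higher at an unadjusted p under 0.05 in knockout astrocytes, with a median of 0.63, and Lgals3bp differed by 0.97 there. For oligodendrocyte markers the knockout median was -0.61. All 12 had a negative difference there, 6 of them at an unadjusted p under 0.05.

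The test of the difference itself, age by genotype, found 0 of 7524 genes past an adjusted p of 0.05 by edgeR (0.0%) and 302 (4.01%) at an unadjusted p under 0.05. DESeq2 also found 0, and limma-voom with quality weights found 1. The smallest p belonged to Igfbp4, which encodes a secreted binder of insulin-like growth factors. Wild-type means went from 112 CPM (young) to 78.5 CPM (old), and knockout means from 78.1 to 139.5 CPM (difference of the log2 fold changes -1.35 ± 0.30, SE, edgeR adjusted p = 0.551). For Adamts1 this difference was -0.49 (95% interval -1.19 to 0.20) and for Tfrc -0.16 (-0.65 to 0.34). Shisa5 differed by 0.12 in knockout astrocytes against 0.99 in wild-type ones (edgeR interaction adjusted p = 1).

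**Figure D4:**
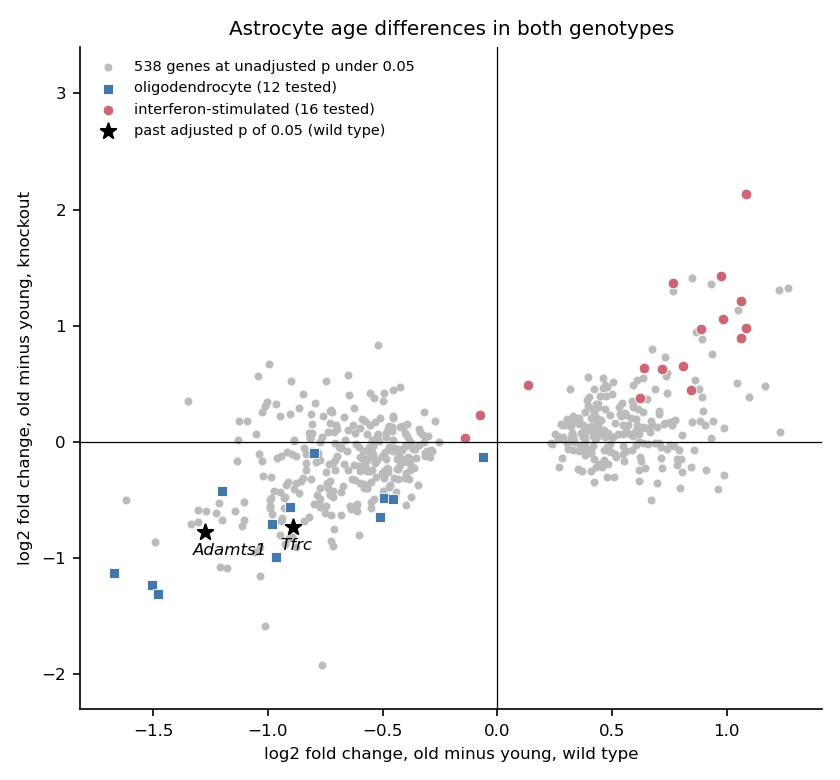
Log2 fold change, old minus young, in wild-type (horizontal) and Trem2 knockout astrocytes (vertical) for the 538 genes at an unadjusted p under 0.05 in wild type (grey), interferon-stimulated genes (red circles), oligodendrocyte genes (blue squares) and the 2 genes past the adjusted threshold (stars). The grey points leave a gap at 0 on the horizontal axis because they were chosen by their wild-type p, and 378 of them have the same sign on both axes.

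Microglia of the same wild-type mice gave more differences with age, though in a different fit. The 2 astrocyte calls among 7524 genes came from the fit of all astrocyte libraries. In a fit of the 28 wild-type libraries with 8402 genes tested, 227 genes (2.7%) passed in microglia, 180 higher (2.14%) and 47 lower (0.559%) in old mice. The age difference itself differed between the cell types for 42 genes (0.5%), 9 higher (0.107%) and 33 lower (0.393%) in astrocytes relative to microglia. With the animal as a replicate block 84 genes passed, 11 higher and 73 lower, and 40 of the 42 were among them. Of the 42, 34 had passed in microglia, 30 as higher with age and 4 as lower. The median size of their log2 fold change was 0.41 in astrocytes and 1.14 in microglia.

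Among the genes with the smallest p for this difference, most rose in microglia and differed little in astrocytes. Ildr2, a membrane protein of the immunoglobulin family, was at a mean of 131 CPM in young and 127 CPM in old astrocytes, and at 16.4 and 109 CPM in microglia (log2 fold changes -0.04 and 2.74, difference -2.77 ± 0.25, SE, edgeR adjusted p = 3.39e-10). Axl, a receptor kinase that clears apoptotic cells, was at 93.4 and 104 CPM in astrocytes and at 29.8 and 111 CPM in microglia (difference -1.80 ± 0.26). Mllt4, which encodes the junction protein afadin, differed by -2.34, Mageh1 by -1.88 and Sdc3, a heparan sulfate proteoglycan, by -1.33 between the cell types. Spp1, the secreted phosphoprotein osteopontin, was at 5.87 and 4.18 CPM in astrocytes and at 21.6 and 284 CPM in microglia (difference -4.38 ± 0.79). Each of these 6 passed in microglia as higher with age.

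Fth1, the ferritin heavy chain, was at 759 and 621 CPM in astrocytes and at 639 and 1589 CPM in microglia (log2 fold changes -0.28 and 1.31, difference -1.59 ± 0.29, SE, edgeR adjusted p = 0.00328). Tomm7, a subunit of the mitochondrial import pore, was at 272 and 180 CPM in astrocytes and at 201 and 314 CPM in microglia (-0.58 and 0.63, difference -1.21 ± 0.20, SE, edgeR adjusted p = 0.000441). Of 51 cytosolic ribosomal protein genes tested in this fit, 7 passed as lower in astrocytes relative to microglia (background 0.393%) and 0 as higher, and the medians were -0.12 in astrocytes and 0.60 in microglia. Nuclear genes of oxidative phosphorylation had medians of -0.03 and 0.35 over 72 tested. Vim, which did not pass in astrocytes, differed between the cell types by -1.45 (edgeR adjusted p = 0.0183) and rose in microglia by 1.20.

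Adamts1 differed between the cell types by -1.54 ± 0.33 (SE, edgeR adjusted p = 0.012), with microglia at a mean of 172 CPM in young and 204 CPM in old mice. Trim30d, an interferon-stimulated gene of the tripartite motif family, was at 12.0 and 30.1 CPM in astrocytes and at 110 and 93.2 CPM in microglia (difference 1.52 ± 0.30, SE, edgeR adjusted p = 0.00768). Both kept the call with the replicate block (adjusted p = 0.003 and 0.0115 by edgeR). Both were named after their values had been seen. For Tfrc the difference between cell types was -0.53 (edgeR adjusted p = 0.549).

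**Figure D5:**
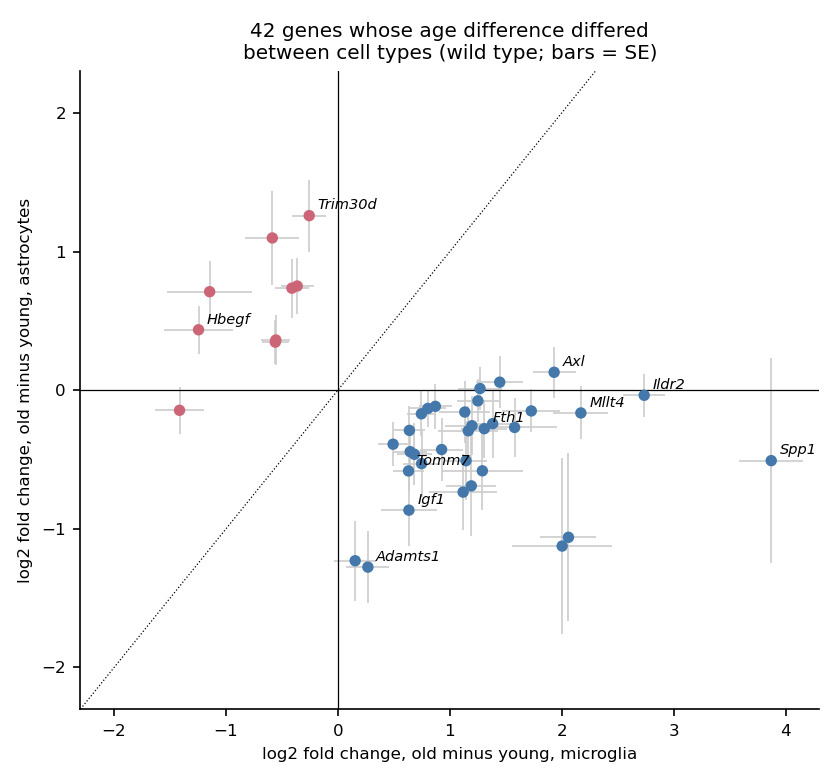
Log2 fold change with age in wild-type microglia (horizontal) and wild-type astrocytes (vertical) for the 42 genes whose age difference differed between the cell types, with standard errors as grey bars, blue where astrocytes lie lower and red where they lie higher. The dotted line marks equal changes, and 33 genes lie below it and 9 above it.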

How the data were processed

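The deposited table holds raw counts of 3′ tags per Ensembl gene for 56 libraries, with 53801 identifiers, of which 53620 matched GENCODE M21 by identifier. The submitters' processing notes list STAR, FastQC 0.11.5, MultiQC and R 3.4.3, and the build GRCm38.p6. How tags were counted, on which annotation, and whether molecular identifiers were collapsed was not stated. Tags mark transcript 3′ ends, so levels (CPM) are not divided by length. The quasi-likelihood test of edgeR 4.0.16 (R 4.3.3, TMM scaling) used all 28 astrocyte libraries, or the 28 wild-type libraries for the cell type comparison, with 1 mean per group. The filter kept genes with 10 counts at the median depth (18.2 CPM) in 7 libraries, and p-values were adjusted by Benjamini-Hochberg at 0.05. Microglia and astrocytes of 1 mouse share its number, and their deviations correlated with a median of 0.168 over 14 mice, against -0.0061 between different mice. Per mouse the correlation ran from -0.18 to 0.35. Of the 14 astrocyte libraries, 4 correlated best with the microglia of their own mouse. DESeq2 1.42.0 and limma 3.58.1 served as alternatives. Replicate libraries are separate mice and differed by more than counting noise in all 42 pairs.

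The text names the 10 genes with the smallest p (mean log2 CPM of at least 3), 14 followed genes and up to 8 from each interaction. The members and gene lists were chosen with earlier results of these data known. RNA integrity was missing for 1 knockout library, which the fit with that covariate dropped. Some genes are not reported here. Promoter sequences come from RefSeq (GRCm38.p6).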

Additional observations from a re-analysis of the deposited data

Results flagged for a closer look

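Of 94 sets of 7 libraries examined, 14 held a library set apart from the other 6 by a gap of more than 0.568 of the range. Chance gives about 1 in 20 for normally distributed values. Several sets lie near 0 and all share the same libraries, so the 14 cannot be read against that rate. In young libraries, animal 9 was highest for Gfap (73.7 CPM, next 44.0) and for summed neuron markers (958 CPM, next 594). Animal 5 was highest for Serpina3n (46.4 CPM, next 28.8), and animal 1 for choroid plexus markers (1338 CPM, next 813). In old libraries, animal 27 was highest for Gjc3 (142 CPM, next 115) and for summed markers of microglia (2306 CPM, next 1215), border macrophages (84.6 CPM, next 34.1), neutrophils (43.2 CPM, next 19.2) and monocytes (10.8 CPM, next 4.25), and lowest for fibroblast markers (77.4 CPM, next 110). Animal 7, the shallowest, was highest for Kazn (19.2 CPM, next 12.7), C3 (19.2 CPM, next 6.19) and Lcn2 (4.79 CPM, next 0). Animal 3 was highest for T and NK cell markers (9.29 CPM, next 3.78).

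The age difference of 42 genes differed between wild-type astrocytes and microglia in the test of the difference itself. Astrocytes minus microglia, the log2 differences were -2.77 for Ildr2, -2.34 for Mllt4, -1.80 for Axl, -1.88 for Mageh1, -1.21 for Tomm7, -4.38 for Spp1, -1.33 for Sdc3, -1.59 for Fth1, -1.54 for Adamts1 and 1.52 for Trim30d.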

How the results depend on the processing

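The count of genes that passed in wild-type astrocytes (2) was the same with RLE scaling. It was 52 without the filter on low counts (6 higher, 46 lower), 6 with DESeq2 and with limma-voom, 7 with only the 14 wild-type libraries, 14 with blocks of mice numbered in sequence, 4 to a set, as a covariate (2 higher, 12 lower), 0 with RNA integrity as a covariate and, in settings chosen after seeing the data, 5 with the oligodendrocyte and 0 with the microglia marker level as a covariate. Each setting that made calls held both Adamts1 and Tfrc. Leaving out 1 library gave 0 to 9 genes: 0 without young animals 1, 5, 9, 13, 17 or 25 or old animals 3, 15, 19 or 23, and 9 without old animal 27. In knockout astrocytes (3) the sets gave 20, no filter 35, DESeq2 9 and limma-voom 5. The age by genotype count (0) was 1 with the sets, 1 with limma-voom, 2 when all genes were kept and 0 to 1 over leave-one-out fits. The cell type count (42) was 93 without the filter, 90 with DESeq2 and 84 with the replicate block that pairs both cell types of a mouse, and the microglia count (227) was 377 without the filter. Leaving out 1 library moved the RNA integrity difference between -1.04 and -0.66 (exact p 0.000583 to 0.0548) and that of log2 totals between -0.59 and -0.32. Followed genes near 0 changed sign without changing their side of the threshold. Aqp4 went to -0.127 with the oligodendrocyte level, to -0.00353 with limma-voom and to -0.0187 when low genes were kept. Gfap went to -0.0617 with limma-voom and -0.144 with the oligodendrocyte level, where Apoe was at -0.013, Clu at -0.0649 and Sparc at -0.0713. Slc1a3 went to -0.00168 with RNA integrity. Over leave-one-out fits Aqp4 ran from -0.0742 to 0.11. The causes were not tested. Without the filter p-values of abundant genes fell as well: Ptgds differed by -1.22 in place of -1.20, with an adjusted p of 5.33e-12 in place of 0.124. Depth limits the test to genes that reached 18.2 CPM in at least 7 libraries.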
